A study of Mus musculus with 8 samples.

Results

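The collagens and matrix remodelling genes of the mouse were followed in isolated renal proximal tubules after cisplatin. The members are the gene rows whose symbol marks a collagen chain, a CCN protein, a lysyl oxidase, fibronectin (Fn1), tenascin C (Tnc), a fibulin or 1 of the TGF-beta ligands. Of 21874 gene rows, 61 met this rule by the letters of their symbol. Among them, 59 were matrix genes, 39 of which were collagen chains. The other 2 shared only the letters: Loxhd1, a protein of hair cell stereocilia that reached at most 0.00362 FPKM, and Col4a3bp, a ceramide transfer protein with 5.91 to 11.5 FPKM and no called change. FPKM stands for fragments per kilobase of transcript, scaled to the mapped depth, so levels can be compared between genes per length.

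All groups came from male C57BL/6 mice, whose age is not given. The groups at 24, 48 and 72 h had received cisplatin at 30 mg/kg by intraperitoneal injection, a platinum compound toxic to the proximal tubule, and no dose is listed for the 0 h group, the control. Proximal tubular cells came from renal cortex, and their total RNA was sequenced after ribosomal RNA removal. Each of the 4 groups had 2 libraries, named a and b here, which the design text calls biological duplicates without saying that they came from separate animals. The p-values therefore measure the spread between these samples, which may be technical.

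Collagens are trimeric matrix proteins. Fibrillar collagens I, III and V build the fibres of the interstitium, collagen IV builds the network of basement membranes, and collagen VI forms beaded filaments at the border between them. In the kidney the Col4a1 and Col4a2 chains occur in all basement membranes, whereas the Col4a3, Col4a4 and Col4a5 chains form the network of the glomerular and some tubular basement membranes. TGF-beta ligands act through SMAD proteins and raise collagen transcription. CCN proteins modulate growth factor and integrin signals and are known targets of YAP and TAZ with TEAD factors. Lysyl oxidases cross-link collagen and elastin. In the normal renal cortex interstitial collagens are made mainly by fibroblasts and pericytes, and injured tubule cells are known to secrete TGF-beta and CCN2.

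The deposited FPKM totals were 448667 and 452114 for 0 h and lay between 314173 and 375186 later, with 15629 to 17704 rows above 0. The depth of the libraries is unknown from FPKM. The 9 proximal tubule markers were all lower at each time than at 0 h, and their summed level went from 4380 to 4766 FPKM at 0 h to 452 to 466 FPKM at 72 h. Because FPKM are shares of a library, a level can rise when other RNA falls, and in bulk samples fewer cells of a type and less RNA per cell cannot be told apart. Of the 59 matrix genes, 33 reached at least 1 FPKM in at least 2 libraries and were tested, and 26 did not. Of the tested genes, 27 were at 1 FPKM or more in both 0 h libraries. The other 6 (Ccn4, Col16a1, Fbln2, Lox, Loxl3 and Tgfb3) were below it in at least 1 of these, so they could pass the filter through their later levels.

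The summed level of the 59 matrix genes was 346 and 340 FPKM at 0 h, then 273 and 243 by 24 h, 446 and 407 by 48 h, and 877 and 922 by 72 h. It was lowest at 24 h and highest at 72 h, and no group's libraries overlapped another's. As a share of all FPKM the members made up 0.0771% and 0.0753% at 0 h, then 0.0727% and 0.0697% by 24 h, 0.142% and 0.128% by 48 h, and 0.250% and 0.260% by 72 h. Relative to the 0 h mean, the group means of the sum were 0.752, 1.24 and 2.62 at 24, 48 and 72 h.

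At 24 h against 0 h, 6 of the 33 tested matrix genes rose and 18 fell in limma's test with Benjamini-Hochberg adjustment (threshold 0.05), while 25.8% of all tested rows rose and 40.0% fell. Ccn1, Ccn2, Ccn4, Col3a1, Col12a1 and Tgfb3 rose. Without 0 h library b, or without 24 h library a, the count of rises was 3. Of the 18 tested collagens, 2 rose and 14 fell. At 48 h, 19 of 33 rose and 7 fell, beside 28.5% and 42.1% of all tested rows. At 72 h, 24 rose and 3 fell, beside 37.6% and 32.4% of all rows, and the 3 that fell were Col4a4, Col4a5 and Fbln7. The median log2 fold change of the 33 was -0.31, 0.47 and 1.06 at 24, 48 and 72 h, where that of all 10757 tested rows was -0.12, -0.13 and 0.07. Fold changes are on the log2(FPKM + 1) scale, on which changes of weakly expressed genes look smaller than they are. The 3 comparisons share their 0 h libraries and are not independent of each other. Among the 27 genes at 1 FPKM or more at 0 h, 4 rose and 17 fell at 24 h, 16 rose and 7 fell at 48 h, and 19 rose and 3 fell at 72 h. With the non-mitochondrial FPKM total set equal in every library, the counts of rows called higher and lower became 3773 and 3213 at 24 h (from 2772 and 4304), 4963 and 2853 at 48 h (from 3061 and 4524), and 5430 and 2517 at 72 h (from 4049 and 3486). Under that scaling 7 members were higher and 14 lower at 24 h, 21 higher and 5 lower at 48 h, and 25 higher and 2 lower at 72 h.

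**Figure D1:**
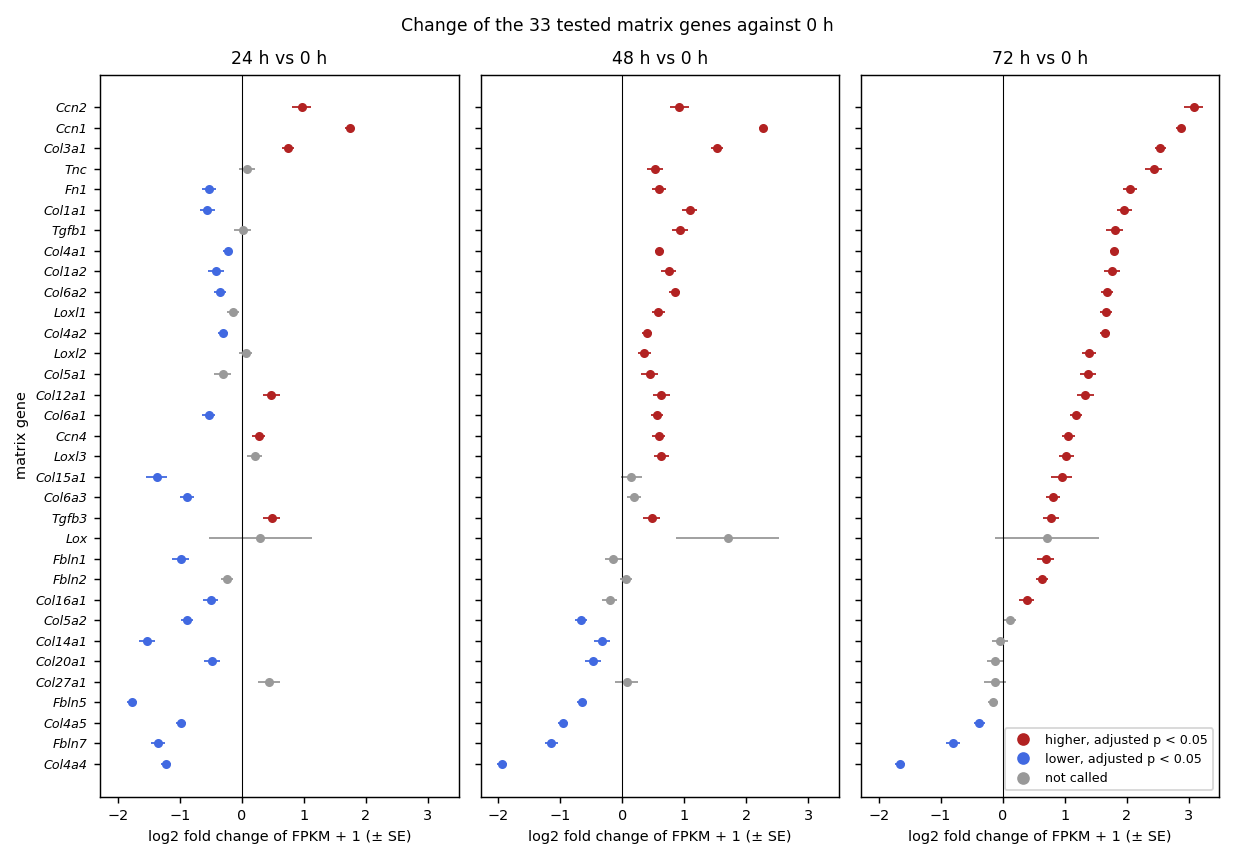
Log2 fold changes of FPKM + 1 against 0 h (x axis, with the standard error as bars) for the 33 tested matrix genes (y axis, ordered by the change at 72 h), in 1 panel per time. Most points lie left of 0 at 24 h, with 18 genes called lower, and right of 0 at 72 h, with 24 called higher; Col4a4 lies far left in all 3 panels.

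Between successive times, 20 of 33 tested matrix genes rose and 1 fell from 24 to 48 h, beside 11.2% and 17.2% of all tested rows. The gene that fell was Col4a4. With equal non-mitochondrial totals the rows called higher and lower in this step were 2792 and 961 (from 1200 and 1846), and 25 members rose and 1 fell. From 48 to 72 h, 29 rose and 0 fell, beside 37.2% and 11.3% of all rows, and the 4 not called were Col14a1, Col27a1, Lox and Tgfb3; in limma no member fell at an unadjusted p under 0.05 either (0 of 33). With equal medians the rows called higher and lower from 48 to 72 h were 2224 and 2580 (from 3999 and 1212), with quantile normalisation 2426 and 2465, and with equal non-mitochondrial totals 2908 and 1985. Under these scalings 24, 24 and 25 members rose and 0 fell. Without 48 h library b, Lox was called lower in this step. The median change of the members was 0.71 and 0.70 in these steps, where that of all rows was -0.03 and 0.18. Taking group means, 25 of the 33 had their highest level at 72 h, as did 36.4% of all tested rows, and 20 had their lowest at 24 h, as did 21.3% of all rows. These 25 include Ccn4, Col16a1, Fbln2, Loxl3 and Tgfb3, which could pass the filter through their later levels. Among the 27 genes at 1 FPKM or more at 0 h, 18 rose and 1 fell from 24 to 48 h. From 48 to 72 h, 25 of the 27 rose and 0 fell.

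Tgfb1, the TGF-beta ligand most studied in renal fibrosis (chromosome 7, 25686933 to 25713600 of mm10, plus strand), had 1.22 and 1.94 FPKM at 0 h, then 1.57 and 1.58 by 24 h, 4.10 and 3.63 by 48 h, and 8.12 and 7.75 by 72 h. Its 24 h libraries lay between the 0 h libraries, and those of 48 and 72 h lay above all earlier ones. The log2 fold change was 0.01 ± 0.134 (SE) at 24 h, 0.93 ± 0.134 at 48 h (adjusted p = 0.000219) and 1.81 ± 0.134 at 72 h (adjusted p = 2.77e-06). The Tgfb1 row reaches past its gene and overlaps the rows of Ccdc97 and Tmem91. Tgfb3 (chromosome 12, 86056744 to 86079229, minus strand) had 0.316 and 0.305 FPKM at 0 h, then 1.04 and 0.640 by 24 h, 0.946 and 0.695 by 48 h, and 1.10 and 1.41 by 72 h. Every later library was above both 0 h libraries, and the fold changes were 0.48 ± 0.135, 0.47 ± 0.135 and 0.78 ± 0.135 (adjusted p = 0.0114, 0.0115 and 0.000684). The Tgfb3 calls at 24 and 48 h were lost without 0 h library b (adjusted p = 0.0511 at both times), and also without 24 h library a (adjusted p = 0.077) or 48 h library a (adjusted p = 0.081). In each fit that leaves out a library of a pair, the library left in that group is assumed to vary like the other groups. Quantile normalisation lowered the Tgfb3 values to 0.30 (adjusted p = 0.0746) at 24 h, 0.22 (adjusted p = 0.165) at 48 h and 0.36 (adjusted p = 0.0392) at 72 h. Tgfb2 stayed under the filter and was not tested, with 0.141 and 0.187 FPKM at 0 h, then 0.166 and 0.0586 by 24 h, 0.147 and 0.215 by 48 h, and 0.499 and 0.351 by 72 h, highest in the 72 h libraries. At 72 h the order by level was Tgfb1, Tgfb3 and Tgfb2, with no overlap of their libraries.

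The 3 tested CCN genes, Ccn1, Ccn2 and Ccn4, rose at each time against 0 h, beside 25.8%, 28.5% and 37.6% of all tested rows. Ccn4 was below 1 FPKM in both 0 h libraries, so it could pass the filter through its later levels. Ccn1, an integrin-binding secreted protein also called Cyr61 (chromosome 3, 145646986 to 145650002, minus strand), had 6.49 and 6.01 FPKM at 0 h, then 23.7 and 22.5 by 24 h, 34.5 and 33.3 by 48 h, and 52.2 and 51.8 by 72 h. The groups followed each other in time without overlap, with fold changes against 0 h of 1.74, 2.27 and 2.87 (SE 0.0699, adjusted p from 4.23e-09 to 2.69e-07). Ccn2, connective tissue growth factor (chromosome 10, 24595097 to 24598683, plus strand), had 6.92 and 6.26 FPKM at 0 h, then 13.9 and 13.8 by 24 h, 16.2 and 10.9 by 48 h, and 60.5 and 65.9 by 72 h. The 48 h libraries lay on both sides of the 24 h libraries (48 h against 24 h, -0.05 ± 0.153, adjusted p = 0.843), and the step from 48 to 72 h was 2.16 ± 0.153 (adjusted p = 2.82e-05). Against 0 h Ccn2 rose by 0.97, 0.92 and 3.08 (SE 0.153, adjusted p = 0.00066, 0.00076 and 4.8e-07). The ratio of Ccn2 to Ccn1 was 1.07 and 1.04 at 0 h, then 0.585 and 0.610 by 24 h, 0.469 and 0.327 by 48 h, and 1.16 and 1.27 by 72 h, so Ccn1 led at the middle times. Ccn4, also called Wisp1 (chromosome 15, 66891311 to 66923246, plus strand), had 0.420 and 0.459 FPKM at 0 h, then 0.779 and 0.686 by 24 h, 1.30 and 1.02 by 48 h, and 2.08 and 1.91 by 72 h. Its groups followed each other in time without overlap, with fold changes of 0.27, 0.59 and 1.06 (SE 0.104, adjusted p = 0.0468, 0.00081 and 1.79e-05). The Ccn4 call at 24 h was lost when any 1 library of 0, 24 or 72 h was left out (for example adjusted p = 0.16 without 0 h library a). It was also lost with quantile normalisation (0.12, adjusted p = 0.34), with a pseudocount of 5 (adjusted p = 0.0927), with no filter, with a mean of at least 1 FPKM as the filter, and with only 0 and 24 h fitted (adjusted p = 0.0609, 0.0531 and 0.0525). Ccn3 stayed under the filter with 0.0497 to 0.129 FPKM at 0 h and 0.547 to 0.673 at 72 h, and Ccn5 and Ccn6 reached at most 0.0490 and 0.0478 FPKM, both in 0 h library b.

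Promoter windows of RefSeq (GRCm38.p6, 250 bases before to 50 after each start) were found for 41 of the member genes, in 46 windows, and were searched on both strands for letters bound by factors of these pathways. Of the 33 tested members, 21 had a window. The letters GGAATG, bound by TEAD factors, were in 6 of the 46 member windows (13.04%) and in 14.66% of all 32851 windows. The 6 genes with them were Ccn1, Col20a1, Col3a1, Col4a6, Col6a2 and Fbln7. CAGACA, bound by SMAD proteins, was in 13 of the 46 member windows (28.26%, from 11 genes) and in 21.04% of all windows. The SMAD palindrome GTCTAGAC was in 0 and 0.213%. The AP-1 letters TGANTCA were in the window of Col6a1 and in 7.81% of all. GGGCGG, the GC box, was in 60.87% of the member windows (26 genes) against 35.66% of all. CCAAT was in 34.78% (16 genes) against 37.41%, and TATAAA in 17.39% (7 genes) against 13.62%. None of the searched letters contains another motif, and a match describes the sequence without showing binding. The stretches upstream of the Ccn1 row (chr3:145650003-145650235, minus strand) and of the Col3a1 row (chr1:45311288-45311442, plus strand) are shown because both genes rose at every time and both hold the TEAD letters. Genes that fell hold them too: the window of Fbln7, lower at all 3 times, has the TEAD letters. So does a window of Col6a2, lower at 24 h and higher at 48 and 72 h. The window of Col20a1 has the TEAD and SMAD letters, and its row was lower at 24 and 48 h. That row also spans Arfgap1, so its fall cannot be assigned to Col20a1. In lower case from 5′ to 3′, capitals mark the motifs: in Ccn1 the GC box and the TEAD letters, both on the other strand, and the TATA letters, and in Col3a1 the SMAD letters, the TEAD letters on the other strand, and the TATA letters.
Ccn1: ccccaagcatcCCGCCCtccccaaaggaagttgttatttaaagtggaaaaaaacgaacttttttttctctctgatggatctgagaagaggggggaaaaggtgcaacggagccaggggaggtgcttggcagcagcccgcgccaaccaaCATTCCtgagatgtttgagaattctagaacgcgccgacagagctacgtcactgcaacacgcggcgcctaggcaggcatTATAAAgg
Col3a1: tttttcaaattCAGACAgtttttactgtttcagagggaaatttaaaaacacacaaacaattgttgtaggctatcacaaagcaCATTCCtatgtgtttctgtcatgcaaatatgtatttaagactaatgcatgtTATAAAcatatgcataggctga

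Of the 6 tested fibrillar collagens, 1 rose and 3 fell at 24 h, where 25.8% of all tested rows rose and 40.0% fell. At 48 h 4 rose and 1 fell, beside 28.5% and 42.1% of all rows. At 72 h 4 rose and 0 fell, beside 37.6% and 32.4%. Col3a1, the chain of collagen III (chromosome 1, 45311443 to 45349706, plus strand), had 11.9 and 11.6 FPKM at 0 h, then 22.8 and 18.2 by 24 h, 35.7 and 35.7 by 48 h, and 72.8 and 74.5 by 72 h. It was the fibrillar collagen called higher at 24 h, with fold changes of 0.74, 1.52 and 2.55 (SE 0.0958, adjusted p = 0.000139, 1.14e-06 and 4.14e-08). Col1a1, the main chain of collagen I (chromosome 11, 94936224 to 94953042, plus strand), had 10.3 and 9.87 FPKM at 0 h, then 7.69 and 5.50 by 24 h, 22.6 and 22.5 by 48 h, and 42.0 and 42.5 by 72 h. It fell at 24 h by 0.56 ± 0.121 (adjusted p = 0.00289) and was above 0 h by 1.09 at 48 h (adjusted p = 4.16e-05) and by 1.97 at 72 h (adjusted p = 8.43e-07). The partner chain Col1a2 had 18.8 and 17.8 FPKM at 0 h, then 15.8 and 11.3 by 24 h, 32.4 and 30.4 by 48 h, and 63.0 and 65.6 by 72 h, in the same order of groups as Col1a1. The ratio of Col3a1 to Col1a1 was 1.16 and 1.18 at 0 h, then 2.96 and 3.31 by 24 h, 1.58 and 1.59 by 48 h, and 1.73 and 1.75 by 72 h, so it stood highest at 24 h. The ratio of Col1a2 to Col1a1 moved less, between 1.35 and 2.06 in all libraries.

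The remaining fibrillar chains were lower in level. Col5a2, a chain of the collagen V that nucleates fibrils (chromosome 1, 45374321 to 45503390, minus strand), had 7.85 and 8.24 FPKM at 0 h, then 3.75 and 4.03 by 24 h, 4.81 and 4.55 by 48 h, and 9.58 and 8.17 by 72 h. It fell by 0.89 and 0.67 at 24 and 48 h (adjusted p = 4.48e-05 and 0.000201), and at 72 h its libraries overlapped those of 0 h (0.12 ± 0.0954, adjusted p = 0.273). With equal non-mitochondrial totals the 48 h difference was -0.29 (adjusted p = 0.0286) and the 72 h difference was called higher (0.38, adjusted p = 0.00876). Its partner Col5a1 went from 1.52 and 1.14 FPKM at 0 h to 4.96 and 5.14 at 72 h (1.38 ± 0.134, adjusted p = 1.69e-05). Col27a1, a collagen known from cartilage, had 2.22 and 1.76 FPKM at 0 h, then 3.73 and 2.46 by 24 h, and no comparison of it was called (24 h, 0.44 ± 0.180, adjusted p = 0.0572). Col2a1, Col5a3, Col11a1, Col11a2 and Col24a1 stayed at or under 0.608 FPKM. The 24 h fall of Col1a2 was lost without 0 h library a or 24 h library b (adjusted p = 0.087 and 0.061), with equal non-mitochondrial totals (-0.20, adjusted p = 0.119) and with quantile normalisation (-0.24, adjusted p = 0.0804). It was also lost without 0 h library b and with no filter (adjusted p = 0.0502 and 0.0538). The 48 h rise of Col5a1 was lost without 0 h library b or 48 h library a (adjusted p = 0.114 and 0.111). A 24 h fall of Col5a1 (-0.31, adjusted p = 0.0681) was called with quantile normalisation (-0.34, adjusted p = 0.0442), with a pseudocount of 0.1 (-0.55, adjusted p = 0.0473) and without 24 h library a (-0.43, adjusted p = 0.0395). A 24 h rise of Col27a1 was called with equal non-mitochondrial totals (0.59, adjusted p = 0.0135), equal medians (0.56, adjusted p = 0.0166) and quantile normalisation (0.47, adjusted p = 0.0423). It was also called without 24 h library b (0.67, adjusted p = 0.0155) and when either 48 h library was left out (0.44, adjusted p = 0.042).

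**Figure D2:**
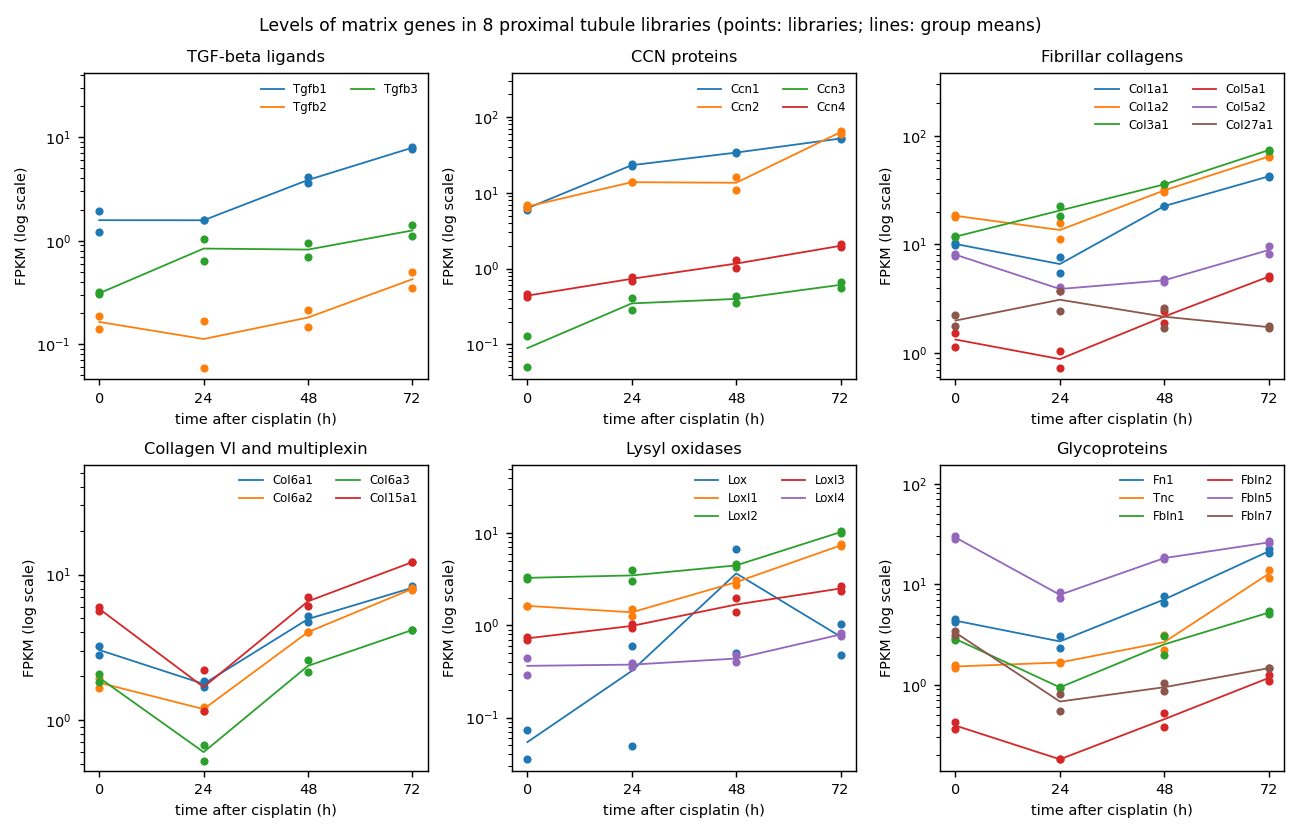
FPKM on a log scale (y axis) against the time after cisplatin in hours (x axis) for members in 6 role groups, with 1 point per library and lines through the group means. Ccn1 and Col3a1 climb at each time, collagen VI and the fibulins dip at 24 h, and Lox has 1 library at 48 h (6.80 FPKM) far above its partner (0.506 FPKM).

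All 4 tested chains of collagen IV, the basement membrane collagen, fell at 24 h, beside 40.0% of all tested rows. At 48 and 72 h, 2 were above 0 h and 2 below it. From 48 to 72 h all 4 rose, beside 37.2% of all rows. Col4a1 (chromosome 8, 11198423 to 11312826, minus strand) was the most abundant member, with 82.1 and 75.0 FPKM at 0 h, then 68.3 and 65.0 by 24 h, 124 and 115 by 48 h, and 264 and 289 by 72 h. Col4a2, which lies head to head with it, had 36.4 and 38.3 FPKM at 0 h, then 30.3 and 29.5 by 24 h, 53.5 and 45.6 by 48 h, and 116 and 123 by 72 h. Both fell at 24 h (-0.23 ± 0.0764 and -0.31 ± 0.0834) and rose at 48 h (0.60 and 0.40) and at 72 h (1.80, adjusted p = 8.36e-08, and 1.66, adjusted p = 2.41e-07). The ratio of Col4a1 to Col4a2 stayed between 1.96 and 2.52 in the 8 libraries, although their rows overlap and the row of Col4a2 reaches past its gene. With equal non-mitochondrial totals the 24 h falls were -0.00049 for Col4a1 (adjusted p = 0.996) and -0.08 for Col4a2 (adjusted p = 0.412). Equal medians gave -0.11 (adjusted p = 0.212) and -0.19 (adjusted p = 0.0636), and quantile normalisation 0.07 (adjusted p = 0.418) and -0.07 (adjusted p = 0.523). The 48 h rises were larger with equal non-mitochondrial totals, at 1.03 and 0.82. The 24 h call of Col4a1 was also lost without 0 h library a (-0.17) or 24 h library b (-0.20). That of Col4a2 was lost without 0 h library b (-0.28).

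Col4a4, a chain of the network found in mature glomerular basement membrane (chromosome 1, 82442646 to 82587431, minus strand), had 59.8 and 63.9 FPKM at 0 h, then 26.6 and 25.2 by 24 h, 15.2 and 15.4 by 48 h, and 17.8 and 20.2 by 72 h. Every later library was less than both 0 h libraries, with fold changes of -1.22, -1.94 and -1.66 (SE 0.0790, adjusted p = 2.52e-06, 9.91e-08 and 1.71e-07), and from 48 to 72 h it rose by 0.29 (adjusted p = 0.0154). The ratio of Col4a4 to Col4a1 was 0.729 and 0.852 at 0 h, then 0.389 and 0.388 by 24 h, 0.123 and 0.134 by 48 h, and 0.0674 and 0.0698 by 72 h, lower at each time than at the time before. Col4a5, a partner of Col4a4 (chromosome X, 141475377 to 141689234, plus strand), had 12.0 and 12.9 FPKM at 0 h, then 5.91 and 5.68 by 24 h, 5.85 and 5.96 by 48 h, and 8.98 and 9.79 by 72 h. It fell by 0.98, 0.96 and 0.37 against 0 h (SE 0.0828, adjusted p = 1.08e-05, 8.06e-06 and 0.00302). With equal non-mitochondrial totals its 72 h difference was -0.11 (adjusted p = 0.237). Col4a6, which sits beside Col4a5, was not tested, with 0.910 and 0.915 FPKM at 0 h, then 0.229 and 0.200 by 24 h, 0.329 and 0.247 by 48 h, and 0.741 and 0.841 by 72 h, lowest at 24 and 48 h as Col4a5 was. The Col4a3 gene lies inside the row named Mff, which had 95.3 and 111 FPKM at 0 h and 53.8 and 51.6 at 72 h; the share of Col4a3 in it cannot be split off, and the Col4a4 row overlaps the rows of Mff and Rhbdd1. The 9 podocyte markers, whose cell type makes the glomerular chains, summed to 51.8 to 56.6 FPKM at 0 h, 69.5 to 73.2 at 24 h, 73.6 to 76.8 at 48 h and 80.7 to 81.7 at 72 h, with none at 0. Of the 8 tested podocyte markers, 4 rose and 1 fell at 24 h, and 6 rose and 1 fell at 48 and at 72 h. The marker that fell was Clic5 (-0.34, -0.50 and -0.78 at the 3 times). The proximal tubule sum went to 0.1004 of its 0 h mean. The part of either in the Col4a4 and Col4a5 levels was not tested. The stretch upstream of the Col4a5 row (chrX:141475169-141475376, plus strand) is shown as that of a collagen IV chain that fell at all 3 times. Its capitals mark CCAAT, and it holds neither GGAATG nor CAGACA nor TATAAA. The full window of Col4a5 also holds the GC box, which lies outside this stretch. Among the rows that fell, the full window of Fbln7 holds GGAATG. That of Col20a1, whose row also spans Arfgap1, holds GGAATG and CAGACA. Windows of other genes that fell at 24 h hold these letters too: GGAATG for Col6a2, and CAGACA for Col1a2, Fbln1 and Fbln5.
Col4a5: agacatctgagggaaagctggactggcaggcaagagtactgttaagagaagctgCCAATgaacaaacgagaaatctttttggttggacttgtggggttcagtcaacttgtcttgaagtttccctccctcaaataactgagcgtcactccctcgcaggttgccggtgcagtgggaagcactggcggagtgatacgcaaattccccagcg

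**Figure D3:**
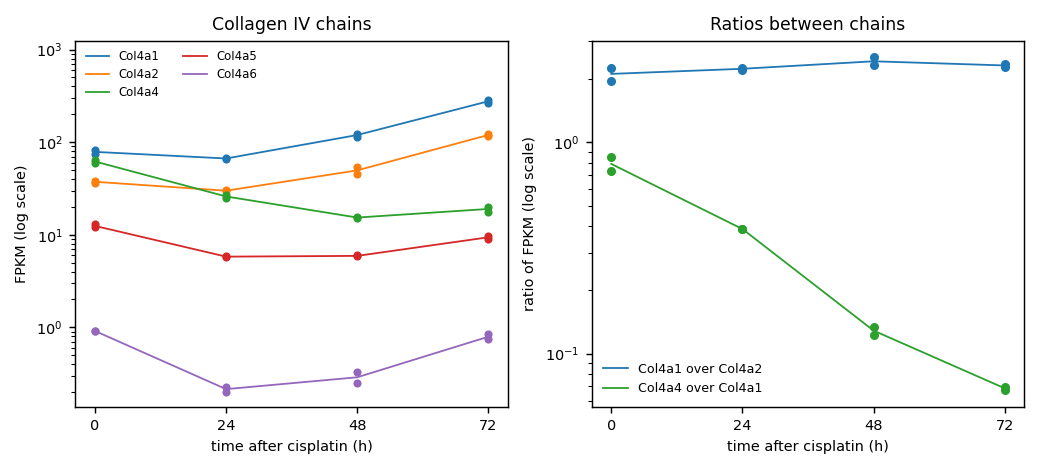
Left, FPKM of 5 collagen IV chains on a log scale against hours after cisplatin; right, ratios of FPKM between chains on a log scale, with 1 point per library and lines through the group means. Col4a1 and Col4a2 run in parallel at a ratio from 1.96 to 2.52, while the ratio of Col4a4 to Col4a1 goes from 0.729 and 0.852 at 0 h to 0.0674 and 0.0698 at 72 h.

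All 3 tested collagen VI chains, Col6a1, Col6a2 and Col6a3, fell at 24 h and were higher than 0 h at 72 h. Of all tested rows, 40.0% fell at 24 h and 37.6% rose at 72 h. Col6a2 (chromosome 10, 76594953 to 76623405, minus strand) had 1.94 and 1.67 FPKM at 0 h, then 1.22 and 1.15 by 24 h, 4.05 and 4.00 by 48 h, and 8.10 and 7.88 by 72 h. Its fold changes were -0.36, 0.84 and 1.68 (SE 0.0927, adjusted p = 0.00779, 3.91e-05 and 4.2e-07). Col6a1 went from 3.25 and 2.81 FPKM at 0 h to 1.84 and 1.69 at 24 h and 7.91 and 8.32 at 72 h, and Col6a3 from 2.08 and 1.83 to 0.676 and 0.525 and then 4.15 and 4.17. At 48 h Col6a3 differed from 0 h by 0.18 (adjusted p = 0.161), a rise that was called with equal medians (0.32, adjusted p = 0.0226) and with equal non-mitochondrial totals (0.48, adjusted p = 0.00307). The 24 h fall of Col6a2 was lost with equal non-mitochondrial totals (-0.21, adjusted p = 0.0709), with equal medians (-0.24, adjusted p = 0.0517) and without 0 h library a (adjusted p = 0.063). Col6a4, Col6a5 and Col6a6 reached at most 0.536 FPKM.

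The fibril-associated collagens and the multiplexin Col15a1 showed more than 1 pattern. Col14a1, which binds the surface of collagen fibrils (chromosome 15, 55307575 to 55520803, plus strand), had 8.23 and 8.09 FPKM at 0 h, then 2.62 and 1.76 by 24 h, 6.80 and 5.86 by 48 h, and 7.85 and 7.86 by 72 h. It fell by 1.53 ± 0.129 at 24 h (adjusted p = 1.08e-05) and by 0.32 at 48 h (adjusted p = 0.0484), and by 72 h its difference from 0 h was -0.05 ± 0.129 (adjusted p = 0.751), or 0.21 with equal non-mitochondrial totals. The 48 h call of Col14a1 turned to 0.06 (adjusted p = 0.648) with equal non-mitochondrial totals. It was lost with equal medians (-0.19, adjusted p = 0.178), with quantile normalisation (-0.18, adjusted p = 0.195), with a pseudocount of 0.1, no filter or no trend (adjusted p from 0.0572 to 0.1), and without any 1 library of 0, 48 or 72 h (adjusted p from 0.0516 to 0.236). Col15a1, a basement membrane proteoglycan collagen (chromosome 4, 47207569 to 47313167, plus strand), had 6.03 and 5.60 FPKM at 0 h, then 2.22 and 1.15 by 24 h, 6.99 and 6.11 by 48 h, and 12.2 and 12.2 by 72 h. Its fold changes were -1.37 ± 0.169 (adjusted p = 0.000132), 0.15 (adjusted p = 0.459) and 0.95 (adjusted p = 0.000959), low at 24 h and high at 72 h. With equal non-mitochondrial totals the 48 h difference was called (0.52, adjusted p = 0.0126). Col12a1, another fibril-associated chain (chromosome 9, 79598969 to 79718847, minus strand), had 1.26 and 1.21 FPKM at 0 h, then 2.60 and 1.66 by 24 h, 2.49 and 2.42 by 48 h, and 4.66 and 4.60 by 72 h. All later libraries of Col12a1 exceeded those of 0 h, with 1.33 ± 0.137 at 72 h (adjusted p = 2.48e-05). The 24 h call (0.47, adjusted p = 0.0141) was lost without either 0 h library (adjusted p = 0.0509 and 0.0616) or without 24 h library a (0.25, adjusted p = 0.068). Col16a1 had 0.773 and 1.06 FPKM at 0 h, then 0.463 and 0.237 by 24 h, 0.671 and 0.644 by 48 h, and 1.43 and 1.56 by 72 h. Its 72 h call (0.39, adjusted p = 0.0168) was lost without 0 h library a or 72 h library b (adjusted p = 0.124 and 0.08), with quantile normalisation (0.09, adjusted p = 0.518) and with a pseudocount of 0.1 (adjusted p = 0.0584). Its 48 h difference (-0.20, adjusted p = 0.153) was called under quantile normalisation (-0.37, adjusted p = 0.0197). The row of Col20a1 also spans Arfgap1, a gene of Golgi traffic, and its values cannot be split between them. It had 12.0 and 12.0 FPKM at 0 h, then 9.70 and 6.98 by 24 h, 7.92 and 8.75 by 48 h, and 10.7 and 11.1 by 72 h. Its falls at 24 and 48 h (-0.49 and -0.48) were called, and that of 48 h was lost with equal non-mitochondrial totals (-0.08, adjusted p = 0.533) and without 48 h library a (adjusted p = 0.0592). The 24 h fall was -0.27 (adjusted p = 0.0495) with equal non-mitochondrial totals and -0.28 (adjusted p = 0.0348) without 24 h library b, and the 48 h fall was -0.29 (adjusted p = 0.0444) with quantile normalisation. Col9a1, Col9a2, Col9a3, Col19a1 and Col22a1 stayed at or under 0.563 FPKM.

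Another 5 collagen genes had no row of their own and lay inside rows of neighbours, so their levels are not known. The row named Pcbp3, which also spans Col18a1 of the basement membrane, had 36.4 and 46.4 FPKM at 0 h, then 18.5 and 20.8 by 24 h, 35.4 and 33.6 by 48 h, and 137 and 133 by 72 h. The row named Tspan15, which spans Col13a1, went from 6.99 and 6.43 to 17.6 and 17.0 FPKM at 72 h. The row named Cmss1, which spans Col8a1, had 6.22 and 5.38 FPKM at 0 h and 5.63 and 6.33 at 72 h, and the row named Phykpl, which spans Col23a1, had 4.66 and 5.12 and then 3.56 and 4.14. The Pcbp3 and Tspan15 rows were higher at 72 h than at 0 h without overlap. The network collagens Col8a2 and Col10a1, the membrane collagens Col17a1 and Col25a1, and Col7a1, Col26a1 and Col28a1 stayed at or under 0.706 FPKM.

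Among the lysyl oxidases, 3 of the 4 tested genes rose at 48 and 72 h, beside 28.5% and 37.6% of all tested rows. At 24 h limma called 0 of 4 (0 also at an unadjusted p under 0.05). Of the 4, Lox and Loxl3 were below 1 FPKM in both 0 h libraries and could pass the filter through later levels. Loxl1, which acts on elastin (chromosome 9, 58287736 to 58313297, minus strand), had 1.61 and 1.64 FPKM at 0 h, then 1.51 and 1.26 by 24 h, 3.13 and 2.75 by 48 h, and 7.17 and 7.52 by 72 h, a rise of 1.67 ± 0.1002 at 72 h (adjusted p = 7.27e-07). Loxl2, which acts on collagen IV, had 3.34 and 3.20 FPKM at 0 h, then 3.93 and 3.02 by 24 h, 4.63 and 4.30 by 48 h, and 10.4 and 10.1 by 72 h (1.40 ± 0.109, adjusted p = 4.03e-06). Its row also spans Gm21451 and LOC115488278, and its values cannot be split between them. The row overlaps those of Entpd4b, Gm27179 and Slc25a37. Loxl3, whose row overlaps that of Htra2, had 0.751 and 0.696 FPKM at 0 h, then 1.03 and 0.943 by 24 h, and 2.66 and 2.36 by 72 h (1.02 ± 0.122, adjusted p = 6.43e-05). Its 24 h difference (0.20, adjusted p = 0.171) was called with equal medians (0.33, adjusted p = 0.0414). At 72 h the rows of these 3 ranked Loxl2, Loxl1 and Loxl3 with no overlap of libraries. The 48 h call of Loxl2 was lost without 0 h library b or 48 h library a (adjusted p = 0.074 and 0.0858). Lox itself had 0.0731 and 0.0355 FPKM at 0 h, then 0.0491 and 0.592 by 24 h, 6.80 and 0.506 by 48 h, and 0.473 and 1.03 by 72 h. Its highest value stood in 48 h library a alone, and no comparison with 0 h was called (adjusted p = 0.778, 0.131 and 0.484, SE 0.832). The 48 h difference of 1.70 was 2.89 without 48 h library b and 0.51 without 48 h library a, so that each value rested on the other library alone. The 72 h difference of 0.72 was called when only 0 and 72 h were fitted (adjusted p = 0.00863). It was also called when either 48 h library was left out, and without the 48 h libraries (adjusted p = 0.0275). The last setting was chosen after seeing the data. With no trend, the 48 h difference of Lox was called at the edge of the threshold (adjusted p = 0.05). Loxl4 was not tested, with 0.290 to 0.438 FPKM at 0 h and 0.775 to 0.817 at 72 h.

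Fn1, the fibronectin on which other matrix proteins assemble (chromosome 1, 71585509 to 71653345, minus strand), had 4.50 and 4.20 FPKM at 0 h, then 3.06 and 2.35 by 24 h, 7.58 and 6.57 by 48 h, and 20.3 and 22.2 by 72 h. It was lowest at 24 h and highest at 72 h without overlap, with fold changes of -0.54, 0.59 and 2.06 (SE 0.115, adjusted p = 0.00281, 0.00139 and 4.54e-07). Tnc, the tenascin that appears in remodelled tissue (chromosome 4, 63959785 to 64047015, minus strand), had 1.46 and 1.59 FPKM at 0 h, then 1.63 and 1.70 by 24 h, 3.12 and 2.21 by 48 h, and 13.9 and 11.5 by 72 h. Its 72 h libraries stood far above the rest, with 2.44 ± 0.136 against 0 h (adjusted p = 4.51e-07) and 1.91 ± 0.136 against 48 h (adjusted p = 1.70e-05). The 48 h call (0.53, adjusted p = 0.00687) was lost without 48 h library a (adjusted p = 0.0566). The stretch upstream of the Tnc row (chr4:64047016-64047265, minus strand) is shown because Tnc had the largest late step among the glycoproteins. Its capitals mark GGGCGG and TATAAA. The full windows of Tnc also hold CAGACA, which lies outside this stretch.
Tnc: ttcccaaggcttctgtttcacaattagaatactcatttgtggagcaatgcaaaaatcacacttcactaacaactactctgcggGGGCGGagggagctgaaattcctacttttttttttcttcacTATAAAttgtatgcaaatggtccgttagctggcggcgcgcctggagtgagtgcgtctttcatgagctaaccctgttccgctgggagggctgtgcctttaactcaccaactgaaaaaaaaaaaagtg

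Of the 4 tested fibulins, which tie elastic fibres and basement membranes together, Fbln1, Fbln5 and Fbln7 fell at 24 h, beside 40.0% of all tested rows. Fbln5, needed for elastic fibre assembly (chromosome 12, 101746565 to 101819317, minus strand), had 30.05 and 28.3 FPKM at 0 h, then 8.40 and 7.32 by 24 h, 18.8 and 17.7 by 48 h, and 25.5 and 26.7 by 72 h. It fell by 1.77 ± 0.0836 at 24 h (adjusted p = 5.29e-07), the largest fall of any tested member at that time on the log2(FPKM + 1) scale. As a ratio of mean FPKM, Fbln7 fell further at 24 h (3.30 to 0.683) than Fbln5 did (29.2 to 7.86). The 48 h fall of Fbln5 was 0.65 (adjusted p = 0.000106). It was 0.34 with quantile normalisation (adjusted p = 0.00314) and 0.23 with equal non-mitochondrial totals (adjusted p = 0.0199). At 72 h both libraries were still under those of 0 h, but the difference was not called (-0.16, adjusted p = 0.123). It was -0.22 (adjusted p = 0.0258) with equal medians and 0.12 with equal non-mitochondrial totals. Fbln7 (chromosome 2, 128862981 to 128897830, plus strand) had 3.14 and 3.46 FPKM at 0 h, then 0.816 and 0.549 by 24 h, 1.03 and 0.862 by 48 h, and 1.46 and 1.48 by 72 h. It was the fibulin that fell at all 3 times, by 1.36, 1.14 and 0.80 (SE 0.112, adjusted p = 9.78e-06, 1.85e-05 and 0.000182). Fbln1, a basement membrane fibulin (chromosome 15, 85205949 to 85286535, plus strand) whose row overlaps those of Pacsin2 and Poldip3, had 2.95 and 2.76 FPKM at 0 h, then 0.929 and 0.960 by 24 h, 3.07 and 1.98 by 48 h, and 5.39 and 5.07 by 72 h. It fell at 24 h (-0.99 ± 0.141, adjusted p = 0.000253) and was above 0 h at 72 h (0.69, adjusted p = 0.00186), with the 48 h libraries on both sides of 0 h. Without 48 h library a its 48 h difference of -0.37 was called (adjusted p = 0.0249). Fbln2 had 0.360 and 0.427 FPKM at 0 h, then 0.182 and 0.182 by 24 h, 0.526 and 0.385 by 48 h, and 1.25 and 1.09 by 72 h. Its 24 h libraries lay below those of 0 h (-0.24 ± 0.0993, adjusted p = 0.0613), a difference that was called with quantile normalisation (-0.46, adjusted p = 0.00411), a pseudocount of 0.1 (-0.80, adjusted p = 0.0181) and no trend (adjusted p = 0.0349). It rose at 72 h (0.64, adjusted p = 0.000354), and this call was lost under quantile normalisation (0.22, adjusted p = 0.0822).

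The genes around the members were counted from lists of pathway genes. Of 29 tested genes of the TGF-beta pathway, 7 rose and 12 fell at 24 h, 10 rose and 11 fell at 48 h, and 18 rose and 5 fell at 72 h, with list medians of -0.13, 0.02 and 0.35. Inhbb, an activin subunit, rose by 2.62 at 72 h, and Id2, a BMP target, fell by 1.66 at 24 h and by 0.83 at 72 h. Of 12 tested YAP/TAZ-TEAD genes, 5 rose and 2 fell at 24 h, 6 rose at 48 h, and 12 rose at 72 h (medians 0.17, 0.24 and 0.62). The target Ankrd1 rose by 2.08, 1.35 and 1.97 at the 3 times, Axl by 0.70, 1.03 and 2.40, and Amotl1 by 0.36, 0.58 and 1.27.

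Genes of collagen synthesis did not all follow the collagens. Of 20 tested, 4 rose and 9 fell at 24 h, 3 rose and 9 fell at 48 h, and 12 rose and 6 fell at 72 h (medians -0.21, -0.14 and 0.50). Sparc, a collagen-binding matricellular protein, rose by 0.86, 1.55 and 2.30. Crtap and P3h2, a helper and an enzyme of prolyl 3-hydroxylation in collagen chains, fell by 1.58 and 0.99 at 24 h and by 0.91 and 1.75 at 72 h. Of 21 tested matrix proteases and inhibitors, 11 rose and 4 fell at 24 h, 13 rose and 3 fell at 48 h, and 19 rose and 1 fell at 72 h (medians 0.37, 0.62 and 1.22). Timp1, the inhibitor of matrix metalloproteinases, went from 0.422 and 0.312 FPKM at 0 h to 8.81 and 9.16 at 24 h and 43.3 and 43.9 at 72 h, so it was already up at 24 h, when 14 of the 18 tested collagens were lower than at 0 h. Plat, tissue plasminogen activator, rose by 2.07, 2.74 and 4.20, and Adamts4, a protease of proteoglycans, by 2.20, 2.59 and 2.66. Of 16 other matrix proteins, 5 rose and 5 fell at 24 h, 9 rose and 1 fell at 48 h, and 12 rose at 72 h (medians 0.14, 0.49 and 1.18). Osteopontin (Spp1) rose by 1.29, 2.25 and 3.05, decorin (Dcn) by 1.65, 1.53 and 1.69, and Emilin1 by 0.29, 1.02 and 1.59. The rows of Id1, Id2, P3h2 and Plat reach past their genes. The list counts stand beside the percentages of all tested rows given above, and no list was tested as a set.

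Markers of matrix-producing cells moved over the same libraries. The 9 fibroblast markers summed to 21.6 to 21.7 FPKM at 0 h, 49.5 to 53.5 at 24 h, 55.6 to 59.2 at 48 h and 75.4 to 76.7 at 72 h. Of the 5 tested, 3 rose and 1 fell at 24 h, 3 rose at 48 h and 4 rose at 72 h. Dcn, which is also on the list of other matrix proteins, led this sum at 24 h with 34.7 and 30.1 FPKM against 9.80 and 9.42 at 0 h, whereas Pdgfra, the receptor that marks fibroblasts, had 2.94 and 3.19 at 0 h, then 3.13 and 3.48 by 24 h, 6.79 and 6.74 by 48 h, and 12.9 and 12.9 by 72 h. The markers of pericytes, smooth muscle and myofibroblasts, 8 of 9 with a row, summed to 22.3 to 24.1 FPKM at 0 h, 36.1 to 39.8 at 24 h, 35.5 to 38.9 at 48 h and 61.1 to 61.8 at 72 h. Of the 7 tested, 4 rose and 1 fell at 24 h, 3 rose and 1 fell at 48 h, and 5 rose and 1 fell at 72 h. Acta2, the smooth muscle actin of myofibroblasts, had 3.59 and 4.34 FPKM at 0 h and 24.9 and 23.8 at 72 h, and the pericyte gene Rgs5 rose by 1.78, 1.61 and 1.17 at the 3 times. Cspg4, the pericyte proteoglycan NG2, fell by 1.21, 1.19 and 0.57, and Myh11, the smooth muscle myosin, had 2.20 and 1.74 FPKM at 0 h and 1.54 and 1.82 at 72 h. Relative to the 0 h mean, the sums at 24, 48 and 72 h were 2.38, 2.65 and 3.51 for fibroblast markers, 1.64, 1.60 and 2.65 for pericyte and muscle markers. They were 1.02, 1.17 and 2.03 for 9 endothelial markers, 1.26, 1.47 and 3.69 for macrophage and monocyte markers (7 of 9 with a row), and 0.376, 0.235 and 0.1004 for proximal tubule markers. Of the 6 tested macrophage and monocyte markers, 2 rose and 1 fell at 24 h and again at 48 h (medians -0.06 and -0.10). All 6 rose at 72 h. Mesangial markers (4) were at 2.38, 2.59 and 2.37, a sum led by Ren1, the renin gene, with 16.7 and 13.5 FPKM at 0 h and 39.8 to 48.7 later. Of the 3 tested mesangial markers, Ren1 alone was called higher at each time, and Itga8 fell by 1.06 at 24 h (adjusted p = 0.000107). Those of parietal epithelium (4) were at 0.916, 0.976 and 2.20. Neutrophil markers (5) were at 26.2, 27.6 and 71.1 from a 0 h sum near 1 FPKM, platelet markers at 0.804, 1.10 and 1.76, those of the thick ascending limb at 0.627, 0.376 and 0.499, and those of the distal tubule and collecting duct at 0.534, 0.396 and 0.461. Of the 6 tested in this last list, 1 rose and 5 fell at each time: Aqp2, the water channel of the collecting duct, went from 37.2 and 29.2 FPKM at 0 h to 91.2 and 102 at 72 h, while Calb1, Slc12a3 and Slc4a1 fell, with 72 h differences of -2.68, -2.32 and -2.26. No marker with a row was at 0 in any library. Their part in the levels of the matrix genes was not tested.

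**Figure D4:**
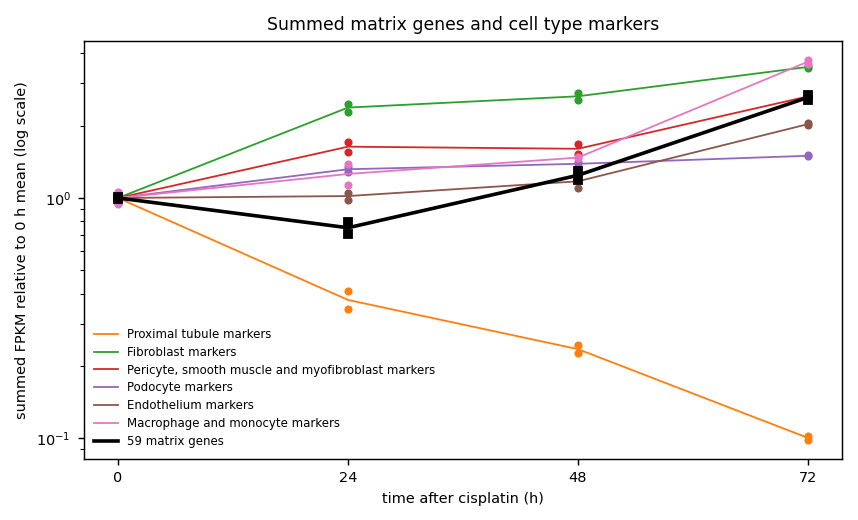
Summed FPKM relative to the 0 h mean on a log scale (y axis) against hours after cisplatin (x axis), for the 59 matrix genes (black squares) and for 6 lists of cell type markers (coloured points), 1 point per library with lines through the group means. The matrix sum dips to 0.752 at 24 h and reaches 2.62 at 72 h, the fibroblast sum is already at 2.38 at 24 h, and the proximal tubule sum falls to 0.1004.

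Libraries of a group were not equal in matrix level. At 24 h, 28 of the 33 tested genes were lower in library b than in a, as were 65.5% of all tested rows, and at 48 h 28 of 33 were, beside 54.1% of all rows. At 0 h 21 and at 72 h 11 of the 33 were lower in b, beside 46.7% and 45.0%. Col15a1 at 24 h (2.22 and 1.15 FPKM) and Col1a2 at 24 h (15.8 and 11.3 FPKM) are examples. In the circular RNA counts of the same libraries, 0 of 2163 circular RNAs lay in or overlapped the span of a member gene, so these gave no second readout of the matrix genes.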

How the data were processed

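Linear RNA was measured in 8 libraries as FPKM, which the authors deposited under that name per the file headers. Bowtie 0.12.2, TopHat2, Cufflinks and mm10 are named in the submitters' processing notes, without role or order. The library kit is one for small RNA, per the labels' protocols. The authors also deposited a count of each circular RNA per library; another 8 columns of that table were not used here. The columns' letters do not match the replicate numbers of the labels, so each column stands for its time group only.

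Identifiers were matched to symbols for 19742 of 21874 rows. Row spans were compared with RefSeq genes of GRCm38.p6, the assembly of mm10, with a tolerance of 2000 bases: of the 33 tested matrix genes, 28 rows kept to their gene, 2 also spanned another gene and 3 reached past it. Whether counting used strand: not given in the sources used here. The test took the 10757 rows that reached 1 FPKM in 2 or more libraries, and was run with limma 3.58.1 in R 4.3.3 (trend, robust, 2-sided) on log2(FPKM + 1), with a pseudocount of 1, in 1 fit of 8 libraries, with Benjamini-Hochberg adjustment over all tested rows and a threshold of 0.05; the procedure was tested on simulated data. FPKM hold no depth, so no counting interval can be given. No circular RNA lay in a member gene, so those counts were not tested.

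Members, lists and tests were chosen with earlier results of these data known. Named in full are up to 6 rises and 6 falls per comparison with 0 h, the ligands, Ccn1, Ccn2, Fn1, Tnc and Lox; other tested collagens, CCN proteins, lysyl oxidases and fibulins are named with values, and up to 3 genes per pathway list by smallest p. A gene that this rule names is not reported here. Markers without a row (Tagln, Cd68, C1qb, Itga2b, Umod) and the pathway genes Lats2 and Ecm1 were not analysed here. Alternatives were other scalings, pseudocounts, filters and fits, leaving out each library, and keeping only rows that hold to their own gene.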

Additional observations from a re-analysis of the deposited data

How the results depend on the processing

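The counts of called members stayed within 1.5 times the reported count under every alternative run: 19 to 27 at 24 h (24 as reported), 21 to 32 at 48 h (26 as reported) and 23 to 37 at 72 h (27 as reported), the highest counts coming from the fit without a filter, which tests all 59 genes. Leaving out 1 library gave 19 to 25, 21 to 26 and 26 to 28. The rises at 24 h alone numbered 3 to 8 (6 as reported), with 3 without 0 h library b and without 24 h library a. In a fit without 1 library, the library left in its group is assumed to vary like the other groups. No paired analysis was possible because the columns carry letters that no label ties to its replicate numbers, so that a column has no replicate number to pair by. The alternatives on circular RNA counts were not run, since none lay in a member gene. Equal medians moved the median of all tested rows from -0.12, -0.13 and 0.07 at 24, 48 and 72 h to -0.00072, 0.01 and 0.0015, and equal non-mitochondrial totals moved it to 0.06, 0.22 and 0.30; changes of that size in a member depend on the scaling.

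Some differences turned direction, and the cause was not tested. At 24 h Col4a1 was 0.069 under quantile normalisation, and leaving out 1 library gave -0.19 to 0.21 for Tgfb1, -0.0069 to 0.59 for Lox and -0.089 to 0.21 for Loxl2. At 48 h leaving out 1 library gave -0.14 to 0.28 for Col27a1, -0.37 to 0.080 for Fbln1 and -0.0084 to 0.13 for Fbln2; equal non-mitochondrial totals gave 0.061 for Col14a1 and 0.17 for Fbln1, and quantile normalisation -0.23 for Fbln2. At 72 h equal non-mitochondrial totals gave 0.14 for Col20a1, 0.21 for Col14a1, 0.059 for Col27a1 and 0.12 for Fbln5, and quantile normalisation 0.027 for Fbln5. Of these, Col4a1 at 24 h and Col14a1 at 48 h were called as reported. The fit without the 48 h libraries, chosen after seeing the data, gave 25 calls at 24 h and 28 at 72 h.

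Some called differences kept their call and moved by over 1.5 times. With equal non-mitochondrial totals the falls at 24 h were -0.35 for Col1a1 (-0.56 as reported) and -0.35 for Fn1 (-0.54), and the 48 h fall of Col4a5 was -0.57 (-0.96). The 48 h rises under that scaling were 0.91 for Col6a1 (0.56), 0.71 for Col5a1 (0.44), 1.17 for Col1a2 (0.75), 0.88 for Loxl1 (0.58), 0.70 for Loxl2 (0.35), 0.96 for Fn1 (0.59) and 0.82 for Tnc (0.53). Quantile normalisation gave 1.13 for Col4a1 (0.60) and 0.81 for Col4a2 (0.40) at 48 h and 0.67 for Ccn4 (1.06) at 72 h. Without 24 h library b the 24 h fall was -0.35 for Col1a1 (-0.56), and without 24 h library a it was -0.65 for Col1a2 (-0.42).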
